A study of Mus musculus with 4 samples.

Results

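The Frizzled receptor genes, Fzd1 to Fzd10, were examined by RNA-seq in mouse bone marrow-derived mesenchymal stem/progenitor cells (mBMSCs) depleted of ZBP1. The family was taken as the rows of the expression table whose gene symbol is one of these names, and all 10 were found among the 24346 rows. The cells came from the femoral marrow of C57BL/6 mice (C57BL/6J in the study's methods), 3 months old, and were kept as adherent cultures, in which cells of other kinds can remain. They received scrambled siRNA (siScr, n = 2) or siRNA targeting ZBP1 (siZBP1, n = 2) with Lipofectamine RNAiMAX and were collected 72 h later. Both groups were therefore transfected, and the ZBP1 siRNA used for the sequencing is not named in the sources used here. The methods describe the cells as duplicated, and whether the duplicates came from separate animals or cultures is not given in the sources used here, so p-values measure only the spread between these samples, which may be technical. Expression is given as FPKM, fragments per length of transcript and per mapped read, which is scaled to length for comparison between genes. The transcript lengths used are not given in the sources used here. Levels compared between genes, such as Fzd3 and Fzd6, depend on those lengths. RNA was taken from whole cultures, in which fewer cells of a type and less RNA per cell cannot be told apart.

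Frizzled proteins are serpentine receptors at the cell surface that bind secreted Wnt ligands through an extracellular cysteine-rich domain. With the co-receptor LRP5 or LRP6 they recruit Dishevelled and stabilize β-catenin, and without these co-receptors they can signal through planar cell polarity and calcium branches. In the skeleton, Wnt signaling is known for favoring the osteoblast over the adipocyte fate of marrow stromal cells.

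The members were compared first by their coding sequences. In the GENCODE M21 gene models of GRCm38, 7 of the 10 genes had a coding sequence that no intron interrupts. These were Fzd1 (chr5:4753839-4758035, minus strand), Fzd2 (chr11:102604396-102608058, plus strand), Fzd7 (chr1:59482424-59486955, plus strand), Fzd8 (chr18:9212163-9218136, plus strand), Fzd9 (chr5:135248938-135251230, minus strand) and Fzd10 (chr5:128600844-128604093, plus strand), together with Fzd5 (chr1:64730558-64737751, minus strand), whose coding sequence lies on 1 of 2 exons. Fzd4 (chr7:89404355-89413134, plus strand) had 2 exons, and Fzd3 (chr14:65192449-65262463, minus strand) and Fzd6 (chr15:39006034-39038188, plus strand) had 7 exons each. The encoded proteins ran from 537 residues for Fzd4 to 709 for Fzd6, with 21 to 30 cysteines. Each had 1 match to the KTxxxW motif that binds Dishevelled. Fzd2 and Fzd7 were the closest pair, with 77.5% identical residues in a global alignment, and both shared about as much with Fzd1 (70.8% for Fzd2 and 69.9% for Fzd7). Fzd9 and Fzd10 shared 63.6%, Fzd5 and Fzd8 60.0%, and Fzd3 and Fzd6 48.4%. The nearest relative of Fzd4 was Fzd10, at 48.2%. With 1 coding transcript taken per gene, no stretch of 50 bases was shared between any pair. A read that long thus fits exactly within 1 of these transcripts only, and fits with mismatches were not examined.

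Depletion of ZBP1 was followed by lower Fzd1, Fzd5, Fzd7 and Fzd8 and by higher Fzd6, while Fzd2 and Fzd3 did not pass the test. Of the 7 members that averaged at least 1 FPKM over the 4 samples, 4 were lower and 1 was higher at an adjusted p under 0.05 in limma, a linear model on log2(FPKM + 1) with variance shared across 11959 genes. Over all those genes, 14.8% were lower and 13.5% were higher by the same rule. The median log2 fold change was -0.38 over the 7 members tested and 0.0045 over all genes tested. A fall of over 1.5-fold in FPKM with an adjusted p under 0.05 was found for 3 members (Fzd5, Fzd7 and Fzd8), against 7.13% of all genes. The siZBP1 samples both lay below both siScr samples for 4 of the 7 members and above them for 2 (Fzd2 and Fzd6), against 33.7% and 34.7% of all genes. The calls were not kept when either siZBP1 sample was left out. Without siZBP1 replicate 1 and without siZBP1 replicate 2, the log2 fold changes were -0.37 and -0.38 for Fzd1 and -0.77 and -0.76 for Fzd5. They were -0.76 and -0.68 for Fzd7, -0.77 and -0.68 for Fzd8, and 0.77 and 0.84 for Fzd6.

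**Figure D1:**
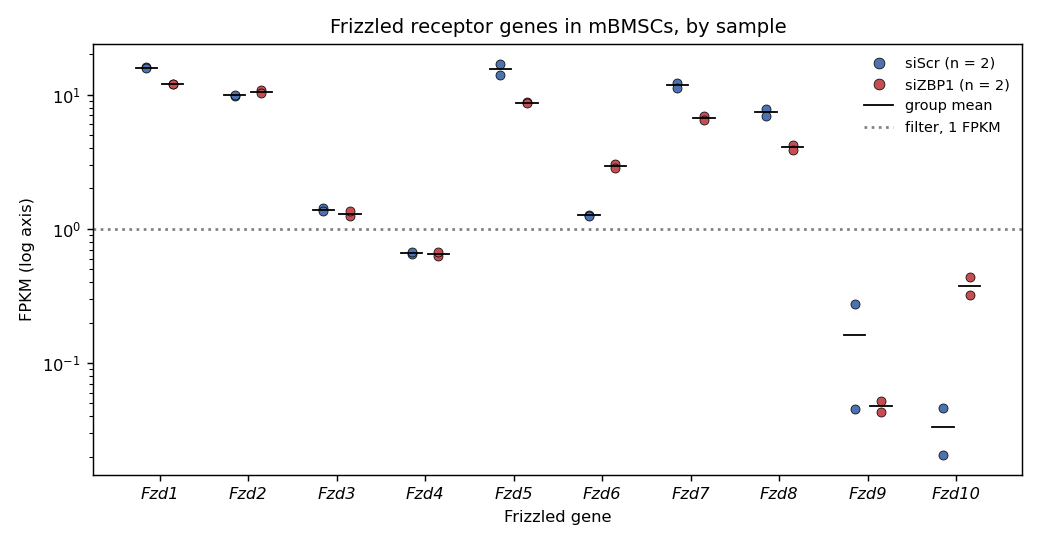
FPKM (log axis) of the 10 Frizzled genes in each sample, with siScr samples in blue, siZBP1 samples in red, black bars for group means and a dotted line at 1 FPKM, the minimum mean for the limma test. Fzd5, Fzd7 and Fzd8 moved down, Fzd6 moved up from 1.26 to 2.94 FPKM, and Fzd4, Fzd9 and Fzd10 had means under 1 FPKM.

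The ZBP1 knockdown itself was seen in both siZBP1 samples. Zbp1 (chr2:173206612-173218923, minus strand) was at 86.0 and 62.0 FPKM in the siScr samples and at 11.5 and 11.6 FPKM in the siZBP1 samples, a limma log2 fold change of -2.56 (SE 0.16, adjusted p = 0.00322). The FPKM values of a sample summed to between 477974 and 492166. Relative depth, estimated from the spacing of the lowest FPKM values, was 1.40 and 1.87 for siScr and 1.00 and 1.61 for siZBP1, which corresponds to 10.7 to 20.1 M fragments. At this depth the tested members with a single annotated transcript rested on about 272 to 1332 fragments per sample. Intervals from these fragments cover counting error only.

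In siScr cells the family spanned a wide range of levels. Fzd1 and Fzd5 led and could not be ordered, since their samples overlapped, and Fzd7, Fzd2 and Fzd8 followed in that order with separate samples. Fzd3, Fzd6 and Fzd4 came next, and Fzd9 and Fzd10 were lowest and overlapped. In siZBP1 cells the order was Fzd1, Fzd2, Fzd5, Fzd7, Fzd8, Fzd6, Fzd3, Fzd4, Fzd10 and Fzd9, with every neighboring pair separate. Fzd2 thus moved from the fourth place to the second, and Fzd6 passed Fzd3.

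Fzd1, Fzd2 and Fzd7 encode closely related receptors. Fzd1 was expressed at 16.1 and 15.8 FPKM in the siScr samples and at 11.998 and 12.09 FPKM in the siZBP1 samples. Both siZBP1 values lay under both siScr values, and the ratio of means was 1.32-fold lower. The limma log2 fold change of Fzd1 was -0.38 (SE 0.05, adjusted p = 0.0121), and its adjusted p was 0.0520 without siScr replicate 1. Fzd7, a receptor found on many stem and progenitor cells, stood at 12.3 and 11.2 FPKM with siScr and at 6.96 and 6.50 FPKM with siZBP1. The groups of Fzd7 were well apart, with a 1.74-fold lower mean and a log2 fold change of -0.72 (SE 0.08, limma adjusted p = 0.00774). Fzd2, the nearest relative of Fzd7, was at 9.71 and 10.02 FPKM in siScr and at 10.8 and 10.3 FPKM in siZBP1. The siZBP1 samples of Fzd2 were the higher ones by a small margin, and the difference did not pass the test (log2 fold change 0.09, 95% interval -0.08 to 0.26, limma adjusted p = 0.364).

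Promoter windows from RefSeq (GRCm38.p6), 300 bases long and reaching 50 bases past the start site, were matched for 6 of the 10 members (Fzd1, Fzd4, Fzd5, Fzd7, Fzd9 and Fzd10). Fzd2, Fzd3, Fzd6 and Fzd8 had no match. The windows of Fzd1, Fzd5 and Fzd7 are shown because these genes fell together. Each is printed 5′ to 3′ on the strand of its gene, with matches to TATAAA, to CCAAT and to the Wnt response core (CTTTG and then 2 bases that are each A or T) on either strand in capitals.
Fzd1: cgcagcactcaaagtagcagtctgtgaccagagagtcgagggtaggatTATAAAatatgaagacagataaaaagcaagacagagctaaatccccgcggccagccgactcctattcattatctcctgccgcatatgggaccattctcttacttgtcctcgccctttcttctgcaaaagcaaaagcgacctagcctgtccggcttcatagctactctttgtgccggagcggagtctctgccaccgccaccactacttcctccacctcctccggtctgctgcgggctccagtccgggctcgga
Fzd5: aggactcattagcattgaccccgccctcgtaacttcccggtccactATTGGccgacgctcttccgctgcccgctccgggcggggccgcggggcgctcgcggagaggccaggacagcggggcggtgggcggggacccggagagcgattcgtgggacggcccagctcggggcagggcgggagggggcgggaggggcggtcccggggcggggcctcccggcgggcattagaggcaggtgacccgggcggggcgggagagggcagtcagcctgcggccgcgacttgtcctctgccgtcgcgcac
Fzd7: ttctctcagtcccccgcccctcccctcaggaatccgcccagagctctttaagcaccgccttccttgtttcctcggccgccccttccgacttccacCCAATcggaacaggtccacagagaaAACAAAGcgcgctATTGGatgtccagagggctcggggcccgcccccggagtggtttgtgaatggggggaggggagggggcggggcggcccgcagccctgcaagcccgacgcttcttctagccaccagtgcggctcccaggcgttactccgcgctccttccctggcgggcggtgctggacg
The windows lie at chr5:4758167-4758466 (minus strand) for Fzd1, chr1:64737701-64738000 (minus strand) for Fzd5 and chr1:59481897-59482196 (plus strand) for Fzd7. Start sites here are those of RefSeq and can differ from the GENCODE models given above. The windows of Fzd1 and Fzd7 lie wholly upstream of those models, and the window of Fzd10 lies wholly inside its model.

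The 3 windows had little in common. The Wnt response core, to which TCF and LEF factors bind, was matched only in Fzd7, at position -130 from the start site, and 16.9% of all 32851 promoter windows hold it. TATAAA was matched only in Fzd1, at position -202, and is held by 13.6% of all windows. CCAAT, held by 37.4%, was matched once in Fzd5, 2 times in Fzd7, once in Fzd4 and not in the other 3. GGGCGG, the core of the GC box, had 10 matches in Fzd5, 8 in Fzd4, 7 in Fzd7, 1 each in Fzd9 and Fzd10 and 0 in Fzd1, and 35.7% of windows hold at least 1. The E-box CACGTG was matched only in Fzd9, against 7.15% of all windows. GC content was 54.0% for Fzd1, 75.7% for Fzd5 and 66.7% for Fzd7, beside a median of 52.7% over all windows. A match describes letters in the window and no binding.

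Fzd5 and Fzd8 form a second pair of relatives, both known as receptors in the β-catenin branch. Fzd5 was at 17.1 and 14.1 FPKM in siScr and at 8.75 and 8.66 FPKM in siZBP1. The siScr samples differed more from each other (SD 2.07) than the siZBP1 samples (SD 0.0613), yet the groups were separate, and the mean was 1.79-fold lower. The limma log2 fold change of Fzd5 was -0.77 (SE 0.10, adjusted p = 0.0104). Fzd8 was at 7.78 and 6.96 FPKM in siScr and at 4.23 and 3.90 FPKM in siZBP1. Its groups were separate too, with a 1.81-fold lower mean and a log2 fold change of -0.72 (SE 0.09, limma adjusted p = 0.00993). The Fzd5 gene overlaps Gm38058 on the opposite strand, and whether counting used strand is not given in the sources used here, so reads from this locus cannot be told apart.

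Fzd3 and Fzd6 are the members best known for planar cell polarity, where they orient hair follicles and axons. Fzd6 was at 1.26 and 1.25 FPKM in siScr and at 3.03 and 2.86 FPKM in siZBP1. It was the one tested member that rose, with a 2.34-fold higher mean and a log2 fold change of 0.80 (SE 0.11, limma adjusted p = 0.0105). If the length of its longest coding transcript is taken, these levels stand for about 82 and 109 fragments in siScr and about 141 and 214 in siZBP1. Fzd6 has 5 annotated transcripts and overlaps Gm26704, a non-coding gene on the opposite strand, so its reads cannot be told apart from those of that gene either. Fzd3 was at 1.43 and 1.35 FPKM in siScr and at 1.24 and 1.35 FPKM in siZBP1. These groups overlapped, and the log2 fold change was -0.06 (95% interval -0.38 to 0.26, limma adjusted p = 0.751).

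Fzd4, Fzd9 and Fzd10 had mean FPKM under 1 and were not among the genes tested. Fzd4, the receptor for norrin in the retinal vasculature, was at 0.645 and 0.667 FPKM in siScr and at 0.628 and 0.673 FPKM in siZBP1, and the groups overlapped. Fzd9, which has been linked to bone formation, was at 0.276 and 0.0452 FPKM in siScr and at 0.0429 and 0.0519 FPKM in siZBP1. These are about 9 and 2 fragments against 1 and 2, so the siScr mean of Fzd9 rests on siScr replicate 1, and the ratio scaled to depth was 0.341 with an exact 95% counting interval of 0.0611 to 1.29. Fzd10, the nearest relative of Fzd9, was at 0.0205 and 0.0458 FPKM in siScr and at 0.436 and 0.319 FPKM in siZBP1. The siZBP1 samples of Fzd10 were both higher, with about 15 and 18 fragments against 1 and 3. The depth-scaled ratio of Fzd10 was 10.3, with an exact 95% counting interval of 3.67 to 40.1 that leaves out differences between cultures. In a limma fit with no minimum level, Fzd10 had a log2 fold change of 0.41 (SE 0.06, adjusted p = 0.0222) and joined Fzd6 among 7.61% of 17788 genes called higher. That scale compresses low values, and Fzd10 in siZBP1 cells stayed at a level under that of Fzd4.

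**Figure D2:**
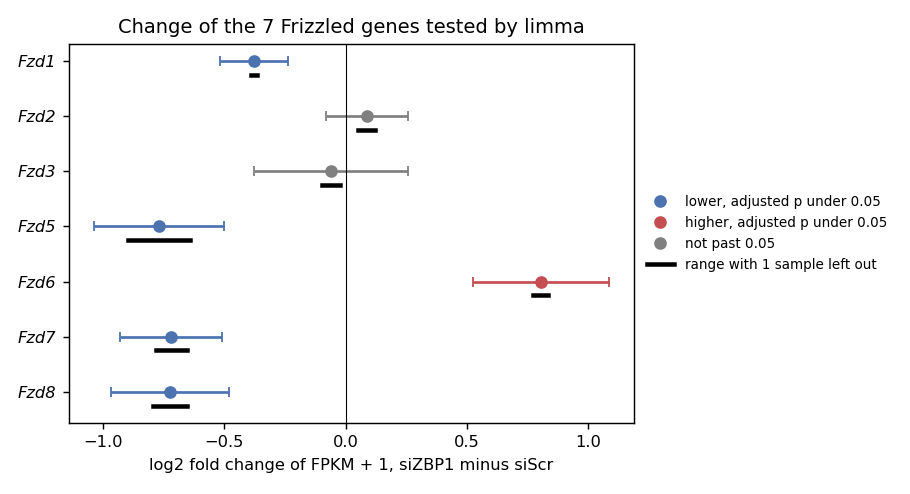
Limma log2 fold change of FPKM + 1 (siZBP1 minus siScr, horizontal axis) for the 7 tested Frizzled genes. Points with thin bars give the estimate and its 95% interval, and thick black bars give the range of estimates when each of the 4 samples is left out. Fzd5 ranged from -0.90 to -0.64 and Fzd6 from 0.77 to 0.84, and the ranges of Fzd1, Fzd7 and Fzd8 also stayed below 0.

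Exon structure and base composition were set beside the changes. The 4 members that fell all have an unspliced coding sequence, but so do Fzd2, Fzd9 and Fzd10. GC content of the longest transcript was 51.7% to 55.7% for the 4 that fell, between 47.3% for Fzd6 and 40.3% for Fzd3 on one side and 56.5% for Fzd10 and 56.6% for Fzd2 on the other. Among the 11493 tested genes with a transcript of known sequence, the median log2 fold change was 0.013 for those under 45% GC, 0.0059 from 45% to 50%, 0.00089 from 50% to 55% and -0.0047 at 55% or more. The part of base composition in the Frizzled values was not tested.

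The summed FPKM of the 10 members was 66.5 and 61.4 in the siScr samples and 48.1 and 46.7 in the siZBP1 samples. The groups did not overlap, and the siZBP1 mean was 16.6 FPKM lower, a ratio of 0.741. An exact permutation test over the samples gave p = 0.333 (two-sided), the smallest value that 2 against 2 can give. Most of the difference lay in Fzd5 and Fzd8, whose summed mean went from 23.0 to 12.8 FPKM, a ratio of 0.556, and the sum of Fzd1, Fzd2 and Fzd7 went from 37.5 to 29.3 FPKM, a ratio of 0.781. The sum of Fzd3 and Fzd6 went the other way, from 2.65 to 4.24 FPKM.

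The makeup of the Frizzled pool differed along with its size. Fzd5 and Fzd8 together supplied 37.3% and 34.3% of the summed FPKM in siScr and 27.0% and 26.9% in siZBP1. The share of Fzd2 was 14.6% and 16.3% in siScr and 22.5% and 21.99% in siZBP1. The share of Fzd6 was 1.90% and 2.04% in siScr and 6.29% and 6.12% in siZBP1. For these 3 shares the groups were separate, as they were for the single shares of Fzd3, Fzd4, Fzd5, Fzd7, Fzd8 and Fzd10. A share depends on the summed FPKM too, so it can differ where the FPKM of the gene overlaps, as for Fzd3 and Fzd4. The FPKM of Fzd2 did not pass the test (limma adjusted p = 0.364). The share of Fzd1 was 24.1% and 25.7% in siScr and 24.9% and 25.9% in siZBP1, where the groups overlapped. In both conditions the 5 most abundant members were Fzd1, Fzd2, Fzd5, Fzd7 and Fzd8.

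**Figure D3:**
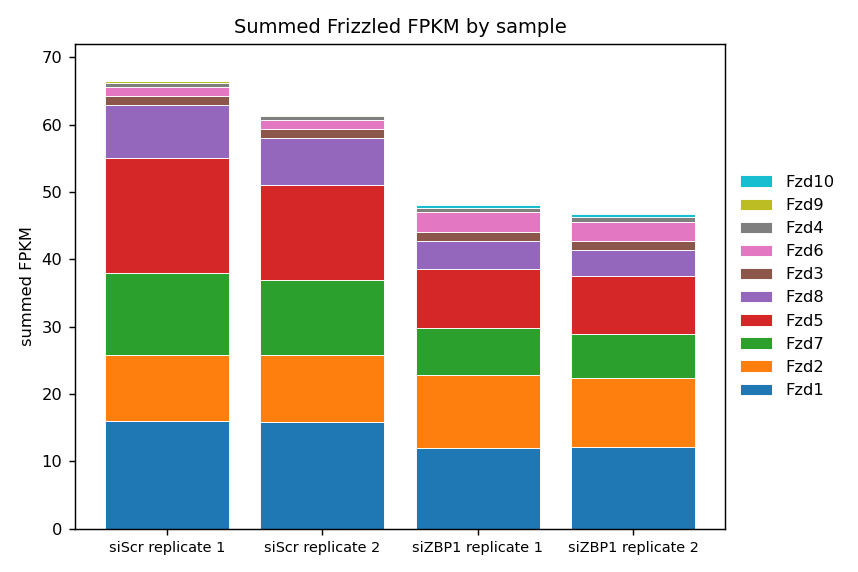
Stacked bars of the FPKM of the 10 Frizzled genes in each of the 4 samples (vertical axis, summed FPKM from 0). The bars reach 66.5 and 61.4 FPKM in siScr and 48.1 and 46.7 FPKM in siZBP1, with thinner Fzd5, Fzd7 and Fzd8 layers and a thicker Fzd6 layer in siZBP1.

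Relatives were also compared within each sample, by the ratio of their FPKM values and, for the tests, by the log2 ratio of FPKM + 1, which is compressed for low genes. Fzd7 stood at 1.27 and 1.11 times the FPKM of Fzd2 in siScr and at 0.643 and 0.634 times in siZBP1. Fzd7 was thus the higher of this pair in both siScr samples and the lower in both siZBP1 samples, a difference of -0.81 in the log2 ratio of FPKM + 1. Fzd6 stood at 0.880 and 0.929 times the FPKM of Fzd3 in siScr and at 2.45 and 2.11 times in siZBP1, a difference of 0.86 in the log2 ratio of FPKM + 1. The difference in log2 ratio was -0.34 for Fzd7 to Fzd1 and 0.46 for Fzd2 to Fzd1, with separate groups. Fzd5 stood at 2.19 and 2.03 times the FPKM of Fzd8 in siScr and at 2.07 and 2.22 times in siZBP1. Here the groups overlapped and the log2 ratio differed by -0.04. Exact permutation tests of the 5 ratios gave p = 0.667 for Fzd5 to Fzd8 and p = 0.333 for each of the others, or 0.417 after adjustment by Benjamini and Hochberg over the 5, and no ratio could have passed 0.05 in this design.

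**Figure D4:**
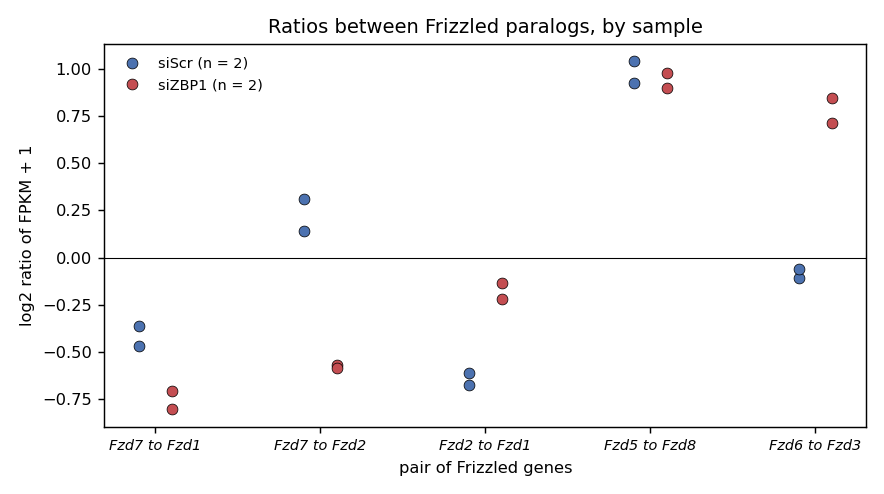
Log2 ratio of FPKM + 1 between 5 pairs of Frizzled genes (vertical axis) in each siScr (blue) and siZBP1 (red) sample. Fzd7 to Fzd2 crosses from above 0 to below it, Fzd6 to Fzd3 crosses the other way, and the samples of Fzd5 to Fzd8 overlap near 1.

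Wnt ligands, which the Frizzled receptors bind, were mostly low in these cultures. Of 19 ligand genes, 5 were at 0 in all samples (Wnt3a, Wnt7a, Wnt8b, Wnt9b and Wnt10a), 5 were tested, 4 were lower and 1 was higher by limma. Wnt4 and Wnt16, among the 4, reached the minimum mean only through the siScr samples (2.05 FPKM in siScr and 0.508 in siZBP1 for Wnt4, 1.63 and 0.640 for Wnt16), so they could enter the test only as genes that differ, and the count is given as a description. Wnt5a, a ligand of the β-catenin-independent branch, was the most abundant and went from 11.3 ± 0.569 to 8.79 ± 0.114 FPKM (SD, n = 2; log2 fold change -0.32, limma adjusted p = 0.0289). The largest falls were those of Wnt10b, an osteogenic Wnt, at -1.56 (limma adjusted p = 0.00917), and Wnt4 at -1.01 (limma adjusted p = 0.0189), which falls under the minimum mean without siScr replicate 1. Wnt9a rose by 1.00 on the log2 scale (limma adjusted p = 0.00909). Without siScr replicate 1, 1 of the ligands was called lower.

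Of 10 genes listed as co-receptors and other Wnt receptors, 9 were tested, 3 were lower and 0 were higher. The median log2 fold change was -0.43, which is the value of Smo, a Hedgehog pathway gene on this list. Ryk, a receptor tyrosine kinase-like Wnt receptor, was at 34.8 ± 3.03 FPKM in siScr and 15.6 ± 1.02 FPKM in siZBP1 (log2 fold change -1.10, limma adjusted p = 0.00399). Lrp4, which binds sclerostin, fell by 1.44 on the log2 scale (limma adjusted p = 0.00585). Lrp5 and Lrp6, the partners of Frizzled in the β-catenin branch, had overlapping samples and did not pass the test. Lrp5 had means of 8.79 FPKM in siScr and 8.60 FPKM in siZBP1 (log2 fold change -0.03, 95% interval -0.27 to 0.21), and Lrp6 had means of 16.4 and 16.2 FPKM (-0.02, 95% interval -0.21 to 0.17). Lrp5 and Lrp6 are named here after their values were seen.

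Genes for the turnover and presentation of Wnt receptors, Frizzled or its co-receptors, were examined next. In this list 6 of 13 were tested, 2 were lower and 0 were higher, and the median was -0.15. Rspo2, an R-spondin that protects Frizzled from removal, fell by 1.56 on the log2 scale (40.5 to 13.0 FPKM, limma adjusted p = 0.00434). Kremen1, a receptor for Dickkopf proteins that acts on LRP5 and LRP6, fell by 0.94 (limma adjusted p = 0.0101). Among 5 genes for secreted proteins with a Frizzled-like cysteine-rich domain, which can bind Wnts in competition with Frizzled, all 3 tested were lower and the median was -1.42. Sfrp2 fell by 2.81 on the log2 scale (18.1 ± 5.31 to 1.72 ± 0.654 FPKM, SD, n = 2, limma adjusted p = 0.00543) and Sfrp1 fell by 1.42 (limma adjusted p = 0.0091).

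Downstream of the receptors, 13 of 14 genes of Dishevelled and the cytoplasmic branch were tested, with 1 lower, 1 higher and a median of -0.01. Apc, part of the complex that degrades β-catenin, fell by 0.31 on the log2 scale (limma adjusted p = 0.0404), a call lost with no minimum level (adjusted p = 0.0618), with no variance trend (0.0543) and without any 1 of the 4 samples (0.0969 to 0.189). Dact1, a Dishevelled-binding protein, rose by 1.05 (3.75 to 8.85 FPKM, limma adjusted p = 0.00384). Of 10 planar cell polarity partners of Frizzled, 6 were tested, with 1 lower, 0 higher and a median of -0.01. The one lower was Prickle3, at -0.57 (limma adjusted p = 0.0191). The limma calls in these 6 lists were not kept when either siZBP1 sample was left out. The lists were chosen with results of these data known, and their counts are to be read against the 14.8% lower and 13.5% higher over all genes.

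**Figure D5:**
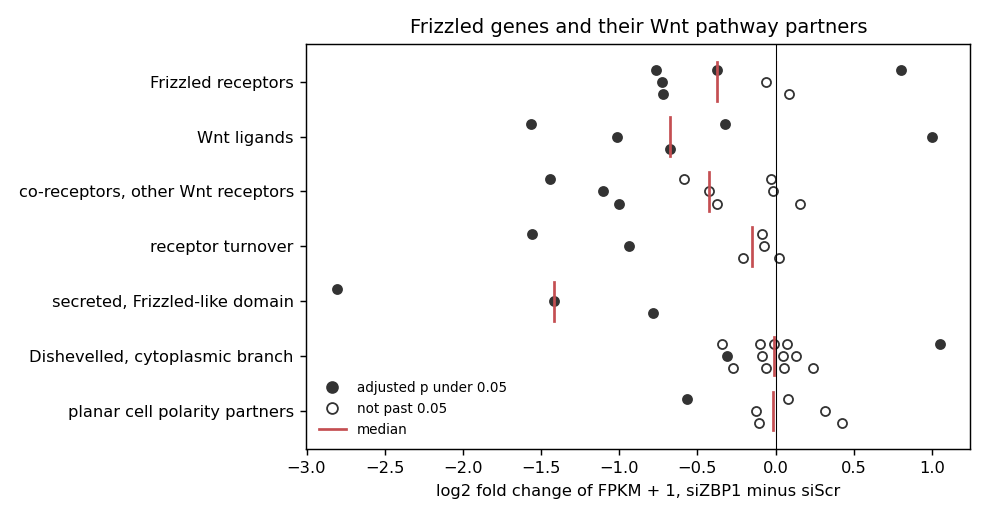
Limma log2 fold change of FPKM + 1 (horizontal axis, siZBP1 minus siScr) for each tested gene of the Frizzled family and of 6 lists of Wnt pathway partners, with filled points for an adjusted p under 0.05 and red bars for medians. The Frizzled median is -0.38, secreted proteins with a Frizzled-like domain have the lowest median at -1.42, and the lists of cytoplasmic and planar cell polarity partners have medians of -0.01.

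Markers of several cell types were examined beside the Frizzled genes. All 15 macrophage markers were expressed in every sample, and their summed level was 8054 and 9180 FPKM in siScr and 13605 and 12847 FPKM in siZBP1. In all 15 the siZBP1 samples were the higher ones, against 34.7% of all genes, 11 were called higher by limma, against 13.5%, and the median log2 fold change was 0.45. The limma calls of macrophage markers were not kept when either siZBP1 sample was left out. Of 14 mesenchymal stromal markers, 13 were tested, 6 were lower, 1 was higher and the median was -0.44, with a summed level of 6091 and 5198 FPKM in siScr and 3676 and 3735 FPKM in siZBP1. None of these 14 was at 0 in all samples. The same was true of the macrophage, osteoblast, endothelial, chondrocyte, and smooth muscle and pericyte lists, so it does not identify the cells. The macrophage sum was above the mesenchymal sum in each of the 4 samples. A few very abundant genes carry these sums, such as Lyz2 (mean of 3230 FPKM in siScr) beside Col1a1 (2793 FPKM) and Col1a2 (1949 FPKM). The sums therefore do not give the share of each cell type. Of 7 osteoblast markers, 6 were tested, 5 were lower and 1 was higher, and all 4 tested smooth muscle and pericyte markers of 6 were lower. Of these, Bglap and Cspg4 had siZBP1 means under 1 FPKM and reached the minimum only through siScr. Of 8 adipocyte markers 4 were tested, 1 was lower and 1 was higher, and Lep, Plin1 and Cfd were at 0 in all samples. Of 5 chondrocyte markers 2 were tested and 1 was lower, Col2a1, which also reached the minimum only through siScr. Of 6 endothelial markers none of the 2 tested was called. The counts of called markers are to be read against 14.8% lower and 13.5% higher over all genes tested. The part of these marker changes in the Frizzled values was not tested.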

How the data were processed

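RNA-seq of 4 samples was used, 2 transfected with siScr and 2 with siZBP1, grouped by their labels. Total RNA was collected, mRNA was purified and Illumina TruSeq libraries were made. Per the paper's methods, the authors mapped reads with TopHat and extracted the deposited FPKM values with HTSeq, while the submitters' processing notes name TopHat, Cufflinks and mm10. Annotation, filters and strand setting are not given in the sources used here. The table also holds group means, which equal the replicate means and were not used. Of its rows, 6558 were at 0 in all samples. Zbp1 and all members were matched by symbol.

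Values were put on the log2(FPKM + 1) scale, the 11959 genes averaging 1 FPKM or more were kept, and limma 3.58.1 was run in R 4.3.3 with its variance trend on. P-values were adjusted by Benjamini and Hochberg at 0.05. A fold change on this scale understates the change of low genes. Sums and ratios were compared by exact permutation of the samples, two-sided. Fragments per sample were estimated from the smallest FPKM steps of single-transcript genes. Proteins translated from GENCODE M21 were aligned with Biopython 1.88. Python 3.11.15 was used with pandas 2.3.3, numpy 2.4.6, scipy 1.17.1 and matplotlib 3.10.9. Other pseudocounts, filters, scalings and variance models, a replicate block and leaving out each sample were tried. Limma was tested on simulated data.

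The members and lists were chosen with earlier results of these data known. Besides the members and Zbp1, the named genes are up to 2 with the largest fall and up to 2 with the largest rise among those called in each partner list, and the most abundant Wnt ligand. Lrp5, Lrp6, Smo, Wnt16, Lyz2, Col1a1, Col1a2, Bglap, Cspg4 and Col2a1 were named outside this rule, after their values were seen.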

Additional observations from a re-analysis of the deposited data

How the results depend on the processing

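With all 4 samples kept, the log2 fold changes of the 7 tested members held their direction and side of the threshold in 53 of 54 comparisons with another pseudocount, filter, scaling or variance model or a replicate block. The exception was Fzd3, which turned to 0.026 with quantile normalization (limma adjusted p = 0.893). Only the pseudocount and the scalings could change a log2 fold change. The filters, variance models and replicate block left it as it was and changed only the p-value, so direction could not turn in those comparisons. The count of Frizzled genes called higher was 2 with no filter, where Fzd10 was added, and 0 with a minimum mean of 5 FPKM, where Fzd6 was not tested. With each sample left out in turn, 0 to 4 Frizzled genes were called lower and 0 to 1 higher, with 0 in both directions without either siZBP1 sample. Over all genes, 48 to 1467 were lower and 22 to 1248 higher, with 938 and 713 without siScr replicate 1, 48 and 22 without siZBP1 replicate 1, and 113 and 32 without siZBP1 replicate 2. In these fits the single sample left in a group is taken to have the spread of the pair it is compared with. For the 5 called members the adjusted p in limma then reached 0.0800 (Fzd7) to 0.109 (Fzd1), with unchanged direction. The difference in summed Frizzled FPKM ranged from -19.1 to -14.0, and that in the log2 ratio of Fzd5 to Fzd8 from -0.10 to 0.013, the latter without siScr replicate 1. Of the co-receptors and other Wnt receptors, 5 were lower with robust variance or the replicate block and 6 without siScr replicate 2, against 3. With the replicate block, 4 Frizzled genes were lower and 1 higher. The deviations of samples with the same number correlated at -0.0630 over 11959 genes, and with 2 pairs and no source on what a number marks, the block was not taken as a pairing. Depth limits Fzd9 and Fzd10, which rest on 18 or fewer fragments in any sample.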
